A study of Mus musculus with 5 samples.

Results

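The eicosanoid genes examined here were 10 receptors and enzymes of prostaglandins and leukotrienes, taken by gene symbol from the 47729 genes of the count table. They were *Ptgdr2*, *Ptger1*, *Ptger2*, *Ptger3*, *Ptger4*, *Ptgir*, *Cysltr1*, *Hpgds*, *Alox5* and *Ptgs2*, and each symbol was found. RNA-seq libraries came from dermal group 2 innate lymphoid cells (dILC2s) sorted from the skin of untreated female C57BL/6 mice, 8 to 13 weeks old by the methods. WT animals gave WT pools 5, 6 and 13, and Rag1-/- animals on the same background, which lack mature T and B cells through germline loss of the recombinase RAG1, gave Rag1-/- pools 2 and 7. By the methods a WT pool held cells of 10 mice and a Rag1-/- pool cells of 9 mice, so that each value is an average over the mice of a pool. The gate took viable CD45+ CD90hi cells and left out those positive for CD2 or CD3. The comparison asked how the absence of RAG1 goes with the transcripts of these cells at rest.

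Prostaglandins are made from membrane arachidonic acid by the cyclooxygenases and terminal synthases, and leukotrienes by 5-lipoxygenase and the enzymes after it. The receptors for them on type 2 lymphocytes are known to pull in opposite directions. Prostaglandin D2 acting on CRTH2 (*Ptgdr2*) and cysteinyl leukotrienes acting on CysLT1 (*Cysltr1*) attract and activate ILC2s, whereas prostacyclin through its receptor IP (*Ptgir*) and prostaglandin E2 through the cAMP-raising receptors EP2 (*Ptger2*) and EP4 (*Ptger4*) restrain them. In the skin, prostaglandin D2 comes mainly from mast cells and antigen-presenting cells that carry the hematopoietic synthase *Hpgds*.

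Some properties of the libraries bear on every value. The WT libraries held 32939428 to 39477243 counts on genes and the libraries labelled Rag1-/- held 8050562 (pool 2) and 38922750 (pool 7), so 3 counts stood for 0.373 CPM (counts scaled to the library total) in pool 2 and for at most 0.0911 CPM elsewhere. *Rag1* itself, looked up after its values were seen, was counted 4, 0 and 5 times in WT pools 5, 6 and 13. In pools 2 and 7 labelled Rag1-/- it had 5 and 48 counts, with a log2 fold change of 3.53 (SE 1.03, adjusted p = 0.0866, edgeR). The WT counts were too few for a lower level to be seen, so *Rag1* cannot check the labels. Pool 7 nonetheless had more *Rag1* counts than any WT library. Whether the targeted allele still gives transcripts was not tested. The direction of each difference below rests on the labels. Their cell type field reads type 3 for the libraries labelled Rag1-/- and type 2 for WT. All 15 ILC2 marker genes exceeded 3 counts in at least 1 library, and their summed level was 1163 to 2245 CPM in WT and 5188 and 3158 CPM in the libraries labelled Rag1-/- (5 called higher). The summed level of 35 genes shared by all leukocytes was 1367 to 3200 and 10420 and 9000 CPM (23 called higher), and that of 16 keratinocyte genes was 27870 to 39680 and 6980 and 16970 CPM (5 called lower). The 13 T cell genes (12 tested) summed to 80.4 to 169 against 514 and 463 CPM (5 called higher). Of these, 7 were higher without overlap between the groups and 1 was lower (21.9% and 24.0% of all genes tested). The 8 NK cell and ILC1 genes summed to 27.5 to 87.7 against 193 and 218 CPM (2 called higher). The 8 ILC3 genes summed to 313 to 338 against 443 and 359 CPM (4 called higher, 1 lower). Of all genes tested, edgeR called 3.57% higher and 2.16% lower. Fibroblast (7492 to 13400 against 8201 and 7967 CPM), endothelial (317 to 543 against 162 and 364 CPM) and basophil and eosinophil genes (2.27 to 4.95 against 1.12 and 3.42 CPM) overlapped in summed level.

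Of the 10 eicosanoid genes, *Ptgir* and *Ptger1* rose in the libraries labelled Rag1-/-, and 0 fell with edgeR, with DESeq2, or at an unadjusted p under 0.05. At that unadjusted p 5 were higher, beside 14.1% of all genes tested that were higher and 12.3% that were lower. The background was 3.57% of the 19011 genes tested that rose and 2.16% that fell, at the limits of 0.05 for the adjusted p and 1 for the size of the log2 fold change (edgeR). All 10 passed the filter on low counts, and the log2 fold change was positive in 9, with a median of 0.83 beside 0.02 over all genes tested. In 5 genes, all of them receptors (*Ptgdr2*, *Ptger1*, *Ptger2*, *Ptgir* and *Cysltr1*), both libraries labelled Rag1-/- lay above the 3 WT libraries, an arrangement found in 21.9% of all genes tested. No member had the reverse arrangement, found in 24.0%. *Ptger3*, *Ptger4*, *Hpgds*, *Alox5* and *Ptgs2* had overlapping groups, so the 3 enzymes were all among the genes without separation. In sorted bulk RNA, fewer cells of a type and less RNA per cell cannot be told apart, and the part of the differing share of leukocyte and keratinocyte RNA in these differences was not tested.

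**Figure D1:**
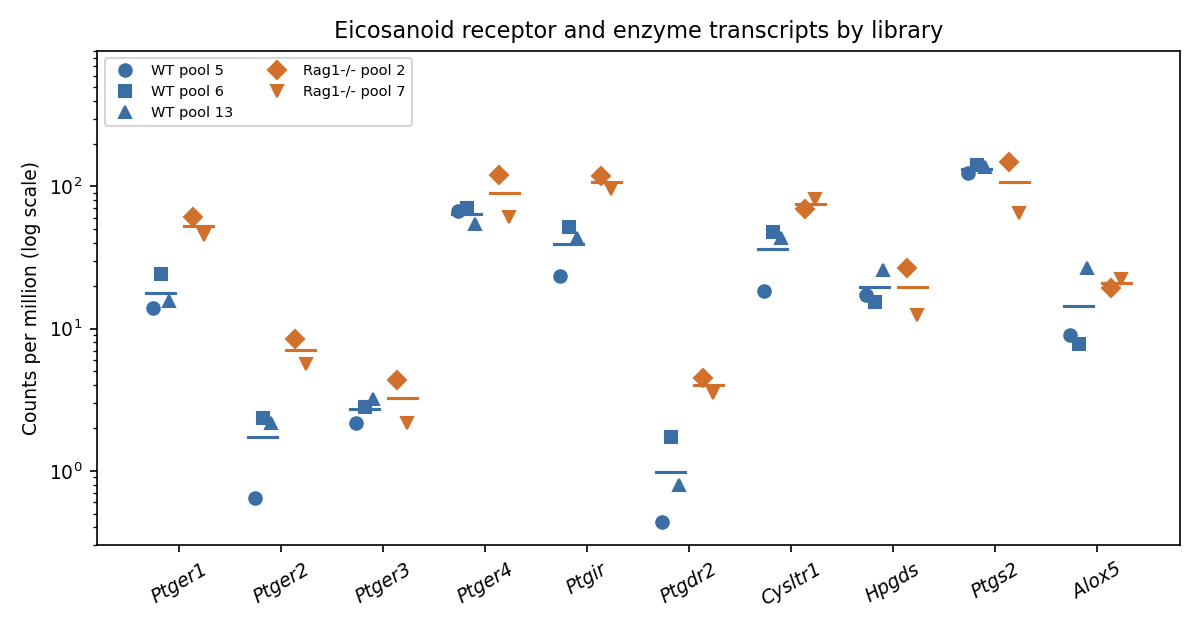
CPM of the 10 eicosanoid genes (x axis) in each of the 5 libraries, on a log y axis, with a horizontal line at the mean of each group; blue marks the 3 WT libraries and orange the 2 libraries labelled Rag1-/-. The orange points lie above all blue points for *Ptger1*, *Ptger2*, *Ptgir*, *Ptgdr2* and *Cysltr1*, and the groups overlap for the other genes, with pool 2 above and pool 7 below or within the WT range for *Ptger4*, *Hpgds*, *Ptgs2* and *Ptger3*.

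*Ptgir*, the receptor of prostacyclin, shares its exons with no other annotated gene (chromosome 7 of GRCm38, 16906490 to 16910905, plus strand). It had 23.6, 52.0 and 43.3 CPM in WT pools 5, 6 and 13 and 118 and 96.1 CPM in pools 2 and 7 labelled Rag1-/-. Both of the latter exceeded every WT library, and WT pool 5 was the lowest. The means were 39.6 ± 14.6 CPM (SD, n = 3) and 107 ± 15.3 CPM (SD, n = 2), with a log2 fold change of 1.46 (SE 0.330, adjusted p = 0.0488, edgeR). The call was lost with RLE scaling (adjusted p = 0.0504), with library size alone (0.0503) and with any library left out (0.0754 to 0.133 without a WT library). Without a WT library edgeR called 0 of all genes tested, so the loss in those settings is not particular to this gene. Without pool 7 edgeR still called other genes, *Ptger1* among them, and *Ptgir* lost its call. Its log2 fold change was 1.35 without pool 2 and 1.51 without pool 7. The adjusted p ran from 0.000539 to 0.490 over all alternatives.

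*Ptger1* encodes EP1, a calcium-coupled receptor of prostaglandin E2, and lies on chromosome 8 (83666833 to 83672753, plus strand). Its levels were 13.9, 24.3 and 15.6 CPM in WT and 60.5 and 45.4 CPM in the libraries labelled Rag1-/-, without overlap. The log2 fold change was 1.58 (SE 0.289, adjusted p = 0.0331, edgeR), with means of 17.9 ± 5.59 CPM (SD, n = 3) and 53.0 ± 10.7 CPM (SD, n = 2). Without a WT library the adjusted p was 0.0837 to 0.12 (edgeR), settings in which 0 of all genes tested were called. The log2 fold change was 1.41 without pool 2, where the call was lost, and 1.69 without pool 7. The adjusted p ran from 0.000136 to 0.525 over all alternatives. The *Ptger1* level is uncertain, since not all of its exon bases are its own and the library kit did not keep the strand.

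*Ptger2*, the EP2 receptor (chromosome 14, 44988195 to 45003820, plus strand), had a larger fold change at a much lower level. It had 0.644, 2.36 and 2.19 CPM in WT (25, 93 and 72 counts) and 8.45 and 5.60 CPM in the libraries labelled Rag1-/- (68 and 218 counts). The groups did not overlap, and WT pool 5 was again the lowest, but the log2 fold change of 2.04 (SE 0.567) missed the threshold (adjusted p = 0.0775, edgeR). DESeq2 called it (adjusted p = 0.00738, where 6.4% of all genes tested were called higher and 6.56% lower), and the adjusted p ran from 0.00551 to 0.854 over the alternatives. *Ptger2* shares 246 exon bases (4.74%) with the antisense gene *Gm17173*, whose counts were 13, 10 and 7 in WT against 7 and 28 in the libraries labelled Rag1-/-. *Ptger4*, the EP4 receptor (chromosome 15, 5206661 to 5244187, minus strand), had 66.9, 70.6 and 54.5 CPM in WT and 119 and 61.1 CPM in the libraries labelled Rag1-/-. Pool 2 was the highest library and pool 7 lay within the WT range, with a log2 fold change of 0.51 (SE 0.290, adjusted p = 0.314, edgeR). It was 0.00 without pool 2 and 0.84 without pool 7. The lowest adjusted p over the alternatives (0.0341, edgeR) came with scaling on the leukocyte genes, where the log2 fold change was −1.69. No alternative called *Ptger4* higher. Its exons overlap the pseudogene *Gm15937* (15.3% of bases), which had at most 4 counts in a library. *Ptger3*, the cAMP-lowering EP3 receptor (chromosome 3, 157566892 to 157645888, plus strand), had 2.17, 2.81 and 3.22 CPM and 4.35 and 2.18 CPM, and its difference of 0.25 (SE 0.434, adjusted p = 0.773, edgeR) turned to −0.25 without pool 2.

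The make-up of the other prostaglandin E2 receptors was compared on the scale of CPM per kilobase of exon, as each receptor's share of the sum over EP2, EP3 and EP4, with *Ptger1* left out for its uncertain level. *Ptger4* held 95.2, 91.8 and 89.3% in WT and 88.3 and 86.3% in the libraries labelled Rag1-/-, the largest share in every library. *Ptger2* held 1.18, 3.92 and 4.58% and then 7.99 and 10.1%. Neither of these shares overlapped between the groups, and that of *Ptger3* did (3.60, 4.27 and 6.16% against 3.76 and 3.60%). The shares are parts of the same sum, so the differences of *Ptger4* and *Ptger2* are not independent. Each had an exact permutation p of 0.2, the smallest the design allows.

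*Ptgdr2*, which encodes the prostaglandin D2 receptor CRTH2 (chromosome 19, 10937160 to 10942511, plus strand), was among the least abundant of the 10 genes. Its counts were 17, 68 and 26 in WT (0.438, 1.72 and 0.789 CPM) against 36 and 137 in the libraries labelled Rag1-/- (4.47 and 3.52 CPM). Both of the latter exceeded all WT libraries in CPM, with means of 0.983 ± 0.664 (SD, n = 3) and 3.996 ± 0.673 (SD, n = 2). The log2 fold change was 2.03 (SE 0.607), which missed the threshold (adjusted p = 0.0912, edgeR) and passed it with DESeq2 (0.016), within a range of 0.0156 to 0.885 over the alternatives. *Ptgdr2* shares 39% of its exon bases (1031 bases) with *Ccdc86* on the opposite strand, a gene looked up after the overlap was seen, and the strand of the reads was not kept. *Ccdc86* had 38.8, 42.3 and 31.6 CPM in WT and 25.3 and 30.9 CPM in the libraries labelled Rag1-/- (log2 fold change −0.38, adjusted p = 0.337, edgeR), and was not called. The part of the overlap in the *Ptgdr2* difference was not tested. How many of the few *Ptgdr2* counts are reads of *Ccdc86* cannot be told apart. The other prostaglandin D2 receptor, *Ptgdr* (DP1), had 16 counts in WT pool 13, 1 count in pool 7 and 0 in the other libraries, and was not tested.

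**Figure D2:**
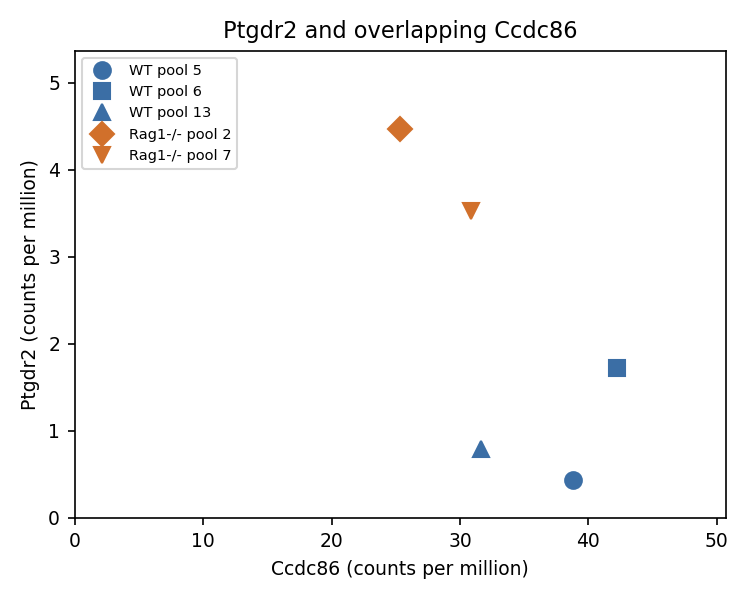
CPM of *Ptgdr2* (y axis) against *Ccdc86* (x axis), with linear axes from 0, where each point is a library; blue marks WT and orange the libraries labelled Rag1-/-. *Ptgdr2* is highest in pools 2 and 7 labelled Rag1-/- (4.47 and 3.52 CPM), and *Ccdc86* is lowest there (25.3 and 30.9 CPM).

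*Hpgds*, the synthase of prostaglandin D2 in blood cells (chromosome 6, 65117293 to 65144908, minus strand), had the log2 fold change nearest to 0 of the 10 genes. It had 17.2, 15.4 and 26.1 CPM in WT and 26.6 and 12.6 CPM in the libraries labelled Rag1-/-. The libraries labelled Rag1-/- held both the highest and the lowest value, the means were 19.6 CPM in each group (SD 5.69, n = 3, and SD 9.91, n = 2), and the log2 fold change was 0.01 (SE 0.365, adjusted p = 0.992, edgeR). Among 11 mast cell genes 0 were called with edgeR, 3 reached an unadjusted p under 0.05 (1 upward, 2 downward), DESeq2 called 3 in the same split, and 2 had a positive log2 fold change. Their summed level of 198 to 323 CPM in WT and 622 and 462 CPM in the libraries labelled Rag1-/- was carried by *Kit*, which ILCs also express (52.9, 180 and 127 against 534 and 336 CPM), while the mast cell protease gene *Mcpt4* had 35.7, 38.8 and 43.2 against 13.04 and 32.4 CPM. The part of mast cell RNA in the *Hpgds* level was not tested.

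*Cysltr1*, the main receptor of leukotriene D4 (chromosome X, 106574346 to 106603679, minus strand), had 18.5, 47.7 and 43.7 CPM in WT and 68.9 and 81.9 CPM in the libraries labelled Rag1-/-. The groups did not overlap and WT pool 5 stood below the rest, with a log2 fold change of 1.08 (SE 0.388, adjusted p = 0.137, edgeR) that passed only with no filter on low counts (0.0184, range over the alternatives 0.0184 to 0.301). *Cysltr2*, the companion receptor that binds leukotrienes C4 and D4, had 1.08, 1.57 and 2.00 CPM in WT and 18.6 and 10.1 CPM in the libraries labelled Rag1-/-. It rose with a log2 fold change of 3.22 (SE 0.402, adjusted p = 0.0306, edgeR), the largest change among all eicosanoid genes tested. The call was lost without any WT library or without pool 2, and the log2 fold change was 2.77 to 3.53 with a library left out. Without a WT library edgeR called 0 of all genes tested, so such a loss is not particular to this gene. The adjusted p ran from 1.18e-10 to 0.165 over the alternatives. Within a library *Cysltr2* was 0.0586, 0.0330 and 0.0459 of *Cysltr1* in WT and 0.270 and 0.123 in the libraries labelled Rag1-/-, on the CPM scale, so the ratio did not overlap either (log2 difference 2.03, exact permutation p = 0.2, the smallest the design allows).

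*Alox5*, 5-lipoxygenase, the enzyme that opens the leukotriene pathway (chromosome 6, 116410077 to 116461178, minus strand), had 9.02, 7.83 and 26.5 CPM in WT and 19.3 and 22.5 CPM in the libraries labelled Rag1-/-. WT pool 13 was the highest of the 5 libraries and the other WT pools were the lowest, with a log2 fold change of 0.58 (SE 0.517, adjusted p = 0.535, edgeR). It was 0.28 to 0.36 without WT pool 5, WT pool 6 or pool 7. Without WT pool 13 it was 1.34 (adjusted p = 0.112, range over the alternatives 0.0754 to 0.821). Its activating protein *Alox5ap* was likewise highest in WT pool 13 and lowest in the other WT pools, with 7.50, 8.08 and 19.6 CPM in WT and 10.3 and 18.9 CPM in the libraries labelled Rag1-/- (log2 fold change 0.38, adjusted p = 0.685, edgeR), and its difference was −0.24 without pool 7. The summed level of 16 macrophage, dendritic and Langerhans cell genes (0 called with edgeR, 2 lower at an unadjusted p under 0.05, 1 lower with DESeq2) was also highest in WT pool 13, with 2123, 1849 and 4148 CPM in WT and 2212 and 3722 CPM in the libraries labelled Rag1-/-. *Cd207*, the Langerhans cell lectin, had 177, 140 and 608 CPM and 316 and 493 CPM in the same libraries. The part of these cells in the *Alox5* level was not tested.

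*Ptgs2*, the inducible cyclooxygenase COX-2 (chromosome 1, 150100031 to 150108227, plus strand), had the highest WT level of the 10 genes, in CPM and per kilobase of exon, and the closest WT libraries. It had 123, 141 and 136 CPM in WT and 149 and 65.1 CPM in the libraries labelled Rag1-/-. Pool 2 lay above and pool 7 below all WT libraries, a CPM ratio of 2.29 between the pools beside 1.15 between the highest and lowest WT library. The log2 fold change was −0.31 (SE 0.326, adjusted p = 0.608, edgeR), and it was −0.97 without pool 2 (adjusted p = 0.0674) and 0.09 without pool 7 (adjusted p over the alternatives 0.00578 to 0.785). *Hpgds*, *Ptger3* and *Ptger4* also differed about as much between the 2 pools labelled Rag1-/- (ratios of 2.12, 1.99 and 1.95). In the receptors *Ptgdr2*, *Ptger2*, *Cysltr1*, *Ptgir* and *Ptger1* the larger spread was among WT libraries. There the highest was 3.93, 3.66, 2.58, 2.21 and 1.75 times the lowest. In each of these receptors the lowest library was WT pool 5. It also had the lowest summed level of leukocyte genes (1367 CPM against 3200 and 3160 CPM in the other WT libraries). The part of that difference in the receptor levels was not tested.

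The promoters of 4 of the genes are shown because these genes span the pattern: *Ptgir* rose, *Ptgdr2* and *Ptger2* had the largest fold changes among the 10 genes, and *Ptgs2* had the highest level with overlapping groups. Of the 10 genes, 8 matched an entry of the RefSeq promoter windows (GRCm38.p6, from 250 bases before to 50 bases after the start), and *Ptger1* and *Cysltr1* had none. Each run reads 5′ to 3′ on the plus strand, the strand of the gene, in chr7:16906240-16906539 for *Ptgir*, chr19:10936910-10937209 for *Ptgdr2*, chr14:44987861-44988160 for *Ptger2* and chr1:150099781-150100080 for *Ptgs2*. Capitals mark a match of a searched motif.
Ptgir: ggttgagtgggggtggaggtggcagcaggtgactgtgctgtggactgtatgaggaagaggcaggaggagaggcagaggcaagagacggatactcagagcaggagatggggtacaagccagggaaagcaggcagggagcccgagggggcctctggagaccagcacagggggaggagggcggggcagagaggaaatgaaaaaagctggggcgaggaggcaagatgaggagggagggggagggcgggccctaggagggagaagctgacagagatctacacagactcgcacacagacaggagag
Ptgdr2: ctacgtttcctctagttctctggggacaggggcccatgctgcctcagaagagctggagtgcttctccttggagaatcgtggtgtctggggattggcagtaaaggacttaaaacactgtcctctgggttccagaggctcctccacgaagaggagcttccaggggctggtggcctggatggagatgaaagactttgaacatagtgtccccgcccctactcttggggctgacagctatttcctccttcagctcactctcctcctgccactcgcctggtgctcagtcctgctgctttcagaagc
Ptger2: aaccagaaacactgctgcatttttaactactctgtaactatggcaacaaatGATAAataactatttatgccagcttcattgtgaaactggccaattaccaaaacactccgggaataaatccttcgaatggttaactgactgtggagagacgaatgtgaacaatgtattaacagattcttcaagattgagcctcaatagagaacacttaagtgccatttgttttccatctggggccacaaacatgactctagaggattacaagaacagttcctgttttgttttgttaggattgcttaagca
Ptgs2: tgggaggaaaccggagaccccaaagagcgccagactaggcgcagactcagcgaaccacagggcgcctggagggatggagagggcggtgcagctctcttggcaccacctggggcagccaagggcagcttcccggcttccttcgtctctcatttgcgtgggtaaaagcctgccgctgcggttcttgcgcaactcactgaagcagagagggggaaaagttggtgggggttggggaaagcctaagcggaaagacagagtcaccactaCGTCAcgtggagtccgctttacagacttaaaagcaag
The windows were searched on both strands for GATAA, the core bound by GATA factors (TTATC on the other strand), AGGTCA, the nuclear receptor core bound by ROR factors (TGACCT), and TGACG, part of the cAMP response element (CGTCA), none of which contains another. GATAA was found in 2 of the 8 windows, *Ptger2* (199 bases before the start) and *Alox5* (162 bases before), beside 25.4% of all 32851 windows. CGTCA was found in *Ptgs2* (13 bases after the start), and thus TGACG in 1 of 8 windows beside 20.8% of all. AGGTCA was in 0 of the 8 windows, beside 16.3% of all. The *Ptgir* and *Ptgdr2* windows, whose GC content was 62.0% and 56.0%, held none of the 3 motifs, and the *Ptger2* window had the lowest GC content of the 8 (37.7%). These matches describe letters in the windows only.

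The rest of the pathway was read from 5 lists of 36 further eicosanoid genes, of which 34 were tested. *Cysltr2* rose and *Pla2g4a* fell, and the others did not pass with edgeR. Among other receptors 5 were tested and 1 rose, with a median log2 fold change of 0.09. Among prostanoid synthesis genes 10 were tested, 1 fell and 3 had a positive value, with a median of −0.74. *Pla2g4a*, the cytosolic phospholipase that releases arachidonic acid, had 46.3, 39.1 and 40.6 CPM in WT and 10.9 and 17.9 CPM in the libraries labelled Rag1-/-. All WT libraries lay above both libraries labelled Rag1-/-, and the log2 fold change was −1.48 (SE 0.273, adjusted p = 0.0333, edgeR). This call was lost without any WT library or without pool 2 (adjusted p over the alternatives 4.55e-05 to 0.112). Without a WT library edgeR called 0 of all genes tested, so that loss is not particular to *Pla2g4a*. *Ptgs1*, the constitutive cyclooxygenase, had 232, 169 and 125 CPM and then 34.0 and 88.7 CPM (log2 fold change −1.46, adjusted p = 0.103, edgeR). *Ptges*, the prostaglandin E synthase coupled to COX-2, had 281, 280 and 223 CPM and then 68.7 and 169 CPM (−1.09, adjusted p = 0.138, edgeR). Neither passed with edgeR, although the groups did not overlap. DESeq2 called both lower (adjusted p = 0.01145 for *Ptgs1* and 0.0379 for *Ptges*), where 6.56% of all genes tested were called lower. With no filter on low counts edgeR also called both lower (adjusted p = 0.00163 and 0.0129). Without pool 2 the log2 fold changes of *Ptgs1* and *Ptges* were −0.91 and −0.56. Without pool 7 they were −2.43 (adjusted p = 0.023, edgeR, range over the alternatives 0.000161 to 0.235) and −1.99 (0.0136, range 0.000688 to 0.275), and both were then called lower. These 3 genes and the summed keratinocyte genes were all lowest in pool 2, and the part of keratinocyte RNA in their levels was not tested.

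Leukotriene synthesis genes had a positive log2 fold change in 6 of 7, with 0 called (edgeR) and a median of 0.66. *Lta4h*, which makes leukotriene B4, had 66.7, 65.8 and 64.0 CPM in WT and 98.4 and 112 CPM in the libraries labelled Rag1-/-. The WT libraries were close together and below both others, and the log2 fold change of 0.72 (SE 0.179) had an adjusted p of 0.0604 (edgeR). *Ltc4s*, which makes leukotriene C4, had 1.11, 1.09 and 2.67 CPM and then 2.24 and 2.70 CPM (log2 fold change 0.66, adjusted p = 0.489, edgeR). Transport and breakdown genes had a positive value in 0 of 6, with a median of −0.71 and 0 called (edgeR). *Hpgd*, which inactivates prostaglandins, had 10.4, 10.5 and 20.3 CPM and then 11.2 and 6.76 CPM (−0.60, adjusted p = 0.384, edgeR). Other lipoxygenases had a positive value in 2 of 6, with a median of −1.54 and 0 called (edgeR). An unadjusted p under 0.05 was reached by 2 of the 7 leukotriene synthesis, 2 of the 6 transport and breakdown and 3 of the 6 lipoxygenase genes, and by 5022 of all 19011 genes tested. DESeq2 called 0, 1 (lower) and 2 (1 in each direction) of them.

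**Figure D3:**
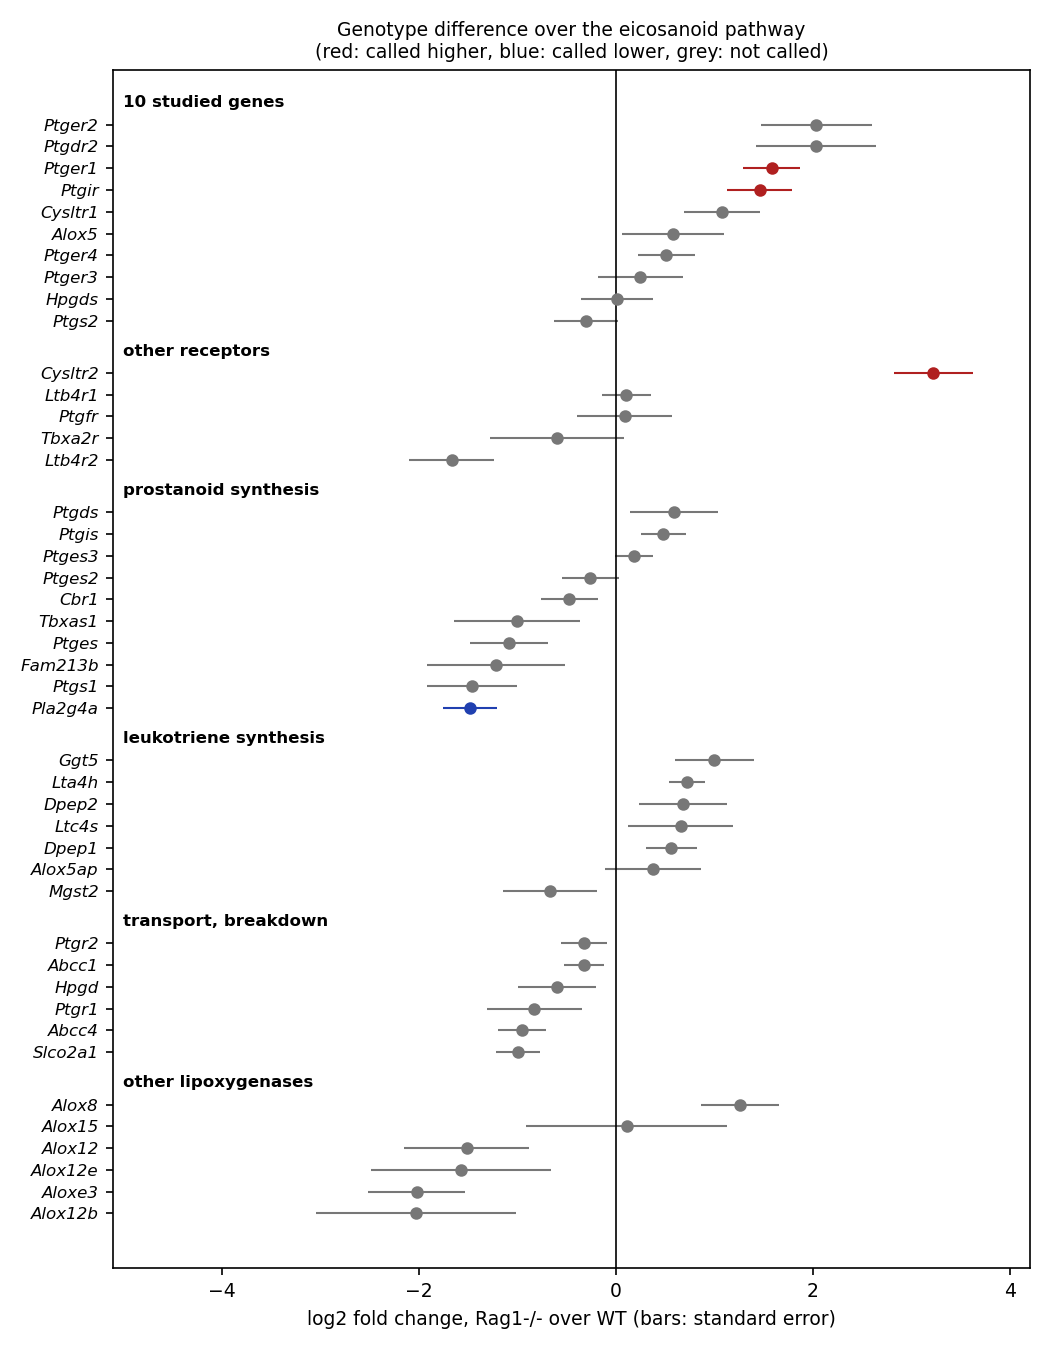
Log2 fold change of the libraries labelled Rag1-/- over WT (x axis, bars are the standard error) for the 10 eicosanoid genes and the 34 other eicosanoid genes tested, grouped by role; red marks genes called higher, blue called lower and grey not called. *Cysltr2* lies farthest to the right at 3.22, *Ptger1* and *Ptgir* are the called genes among the 10, and *Pla2g4a* at −1.48 is the called gene to the left of 0; *Fam213b* is the file's symbol for the prostamide synthase *Prxl2b*.

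Levels of the 10 genes were compared with each other per kilobase of exon (CPM per kilobase, over the exons of all transcripts in GENCODE M21). In WT the order was *Ptgs2* (29.2 ± 2.02, SD, n = 3), *Ptgir* (11.9 ± 4.37), *Ptger4* (9.63 ± 1.27), *Cysltr1* (7.12 ± 3.08), *Alox5* (3.52 ± 2.55), *Ptger1* (3.29 ± 1.02), *Hpgds* (3.05 ± 0.886), *Ptger3* (0.480 ± 0.0934), *Ptgdr2* (0.372 ± 0.251) and *Ptger2* (0.333 ± 0.182). Only *Ptgs2* stood apart from its neighbour below, and *Hpgds* from *Ptger3*, whereas all other neighbours overlapped between libraries. In the libraries labelled Rag1-/- the order was *Ptgir* (32.1 ± 4.59, SD, n = 2), *Ptgs2* (23.3 ± 12.9), *Cysltr1* (14.7 ± 1.78), *Ptger4* (13.6 ± 6.20), *Ptger1* (9.70 ± 1.95), *Alox5* (5.08 ± 0.556), *Hpgds* (3.05 ± 1.54), *Ptgdr2* (1.51 ± 0.255), *Ptger2* (1.35 ± 0.388) and *Ptger3* (0.574 ± 0.269). Here the 4 highest overlapped with their neighbours. With the length given in the deposited table instead, a choice made after the values were seen, *Ptger4* (19.6 CPM per kilobase) stood above *Ptgir* (14.5) in WT. In another alternative, also chosen after the values were seen, the same counts were divided by the exon bases shared with no other gene. Reads were not counted again on those bases. *Ptger1* then had 11.3 CPM per kilobase in WT and 33.4 in the libraries labelled Rag1-/-. Its mean in the latter was the highest of the 10 genes, but its libraries overlapped those of *Ptgir*.

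Since leukocyte genes were higher in the libraries labelled Rag1-/-, each gene was also set against the summed CPM of the 35 leukocyte genes of the same library, a ratio that no scaling between libraries can alter. On this scale 0 of the 10 genes were higher without overlap (0.71% of all genes tested) and 6 were lower (86.2% of all genes tested). The receptors *Ptgdr2*, *Ptger2* and *Ptger1* had log2 differences of 0.22, 0.19 and −0.42 with overlapping groups, and those of *Ptgir* and *Cysltr1* were −0.51 and −0.86 without overlap. *Ptger4*, *Ptger3*, *Hpgds* and *Ptgs2* had −1.59, −1.82, −2.07 and −2.45, again without overlap, and *Alox5* had −1.26 with WT pool 6 between the libraries labelled Rag1-/-. Relative to the leukocyte gene *Ptprc* alone, *Ptgir* (−0.22) and *Cysltr1* (−0.57) had overlapping groups. *Ptger2* (0.48) was then higher without overlap, and *Ptger3*, *Ptger4*, *Hpgds* and *Ptgs2* were again lower. The share over all genes tested was not computed for *Ptprc*. With the libraries scaled on the leukocyte genes in the edgeR fit the median log2 fold change of all genes moved from 0.02 to −2.13, *Ptger1* and *Ptgir* turned to −0.48 and −0.52, and *Ptger4*, *Hpgds* and *Ptgs2* were called lower. The rise of *Ptger1* and *Ptgir* is thus one in CPM, not one relative to leukocyte transcripts. Relative to the summed ILC2 genes, their log2 differences were 0.33 and 0.24 with overlapping groups. On that scale *Ptgdr2* (0.97) and *Ptger2* (0.94) were higher without overlap (2.88% of all genes tested), and *Ptger3*, *Ptger4*, *Hpgds* and *Ptgs2* were lower (66.8% of all genes tested).

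**Figure D4:**
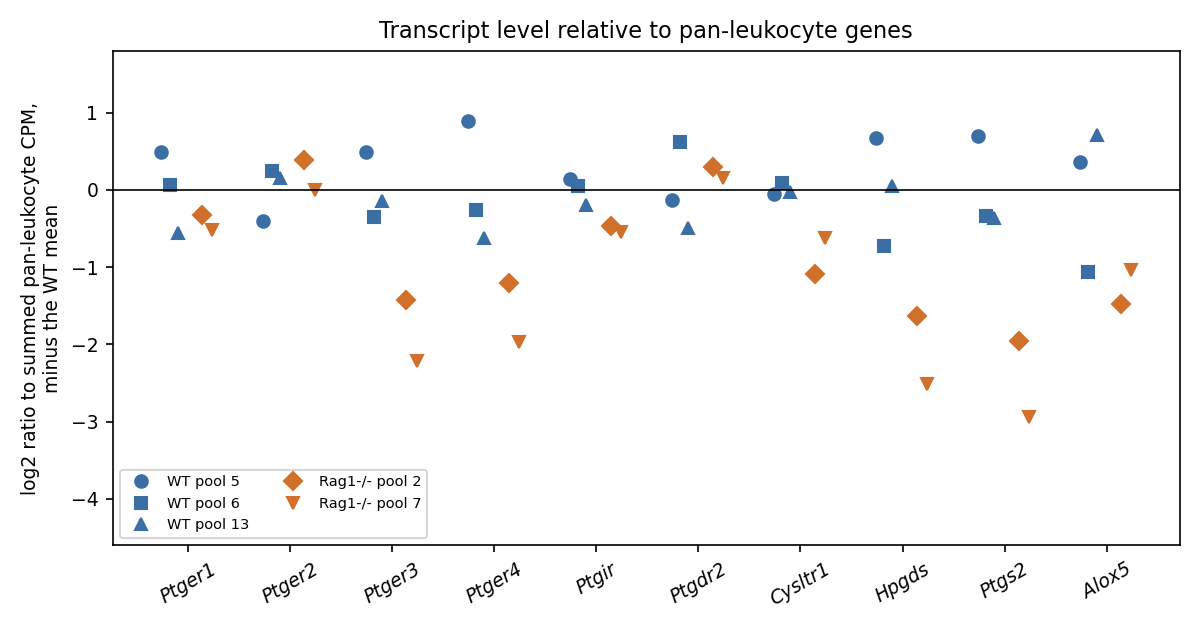
Log2 ratio of each gene's CPM to the summed CPM of 35 leukocyte genes in the same library, with the WT mean of each gene set to 0 (y axis), for the 10 eicosanoid genes (x axis); blue marks WT libraries and orange the libraries labelled Rag1-/-. *Ptgdr2*, *Ptger2* and *Ptger1* have orange points that overlap the blue range, and *Ptgs2* and *Hpgds* have orange points farthest below 0, with mean differences of −2.45 and −2.07.

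For 4 of the genes the nearest profiles over the 5 libraries were sought among all genes tested, by the root mean square distance of log2 CPM centred on each gene's mean. Nearest to *Ptgdr2* were *Ccdc69* (distance 0.0667), *Klhl6* (0.143) and *Prokr2* (0.158). Nearest to *Ptger4* were *Ccdc84* (0.0438), *Mapk8ip3* (0.0593) and *Gm21992* (0.0607). The nearest to *Hpgds* were *mt-Rnr1* (0.0548), the mitochondrial ribosomal RNA, *Zmym6* (0.0765) and *Prrx1* (0.0970), and those to *Alox5* were *Card9* (0.119), *Klri1* (0.127) and *Ncf1* (0.132), which encodes a subunit of the phagocyte oxidase. The profiles share libraries and depth, and *Klri1* had at most 0.334 CPM.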

How the data were processed

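Poly(A) RNA of 5 pools of sorted dermal ILC2s (3 WT, 2 Rag1-/-) was sequenced by the authors. The authors deposited counts per gene without normalization, made on GRCm38 with, per the submitters' processing notes, STAR 2.5 and featureCounts 1.5.0-p1. Per the labels and per the methods the annotation release differed, both on that build. The strand was not kept by the kit. A deposited table of DESeq2-normalized values was not used, and the deposited gene length was used only as an alternative. No column was left unassigned. Groups came from the labels, and the labels give 16 Rag1-/- mice where the methods imply more.

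Counts were filtered with filterByExpr, scaled with TMM and compared with the quasi-likelihood test of edgeR 4.0.16 (R 4.3.3), with Benjamini-Hochberg adjustment over 19011 genes. A gene was called when its adjusted p was under 0.05 and its log2 fold change was over 1 in size. The p-values measure the spread between pools, and 3 counts, taken as the floor, cover counting error only. Ratios within a library were compared by exact permutation of the 5 libraries (10 splits, two-sided). Genes that share exons and lengths came from GENCODE M21, promoters from RefSeq. The alternatives were DESeq2 1.42.0, limma 3.58.1 on log2 CPM (prior count 2), other scalings, filters and thresholds, thinning to the shallowest library, and each library left out. The fit was tested on simulated data. Named were all 10 genes, 8 direct partners, other eicosanoid genes that were called, and the 3 nearest profiles of 4 genes. Genes named outside this rule were chosen after their values were seen. Some overlapping genes are not reported here. Members, lists and markers were chosen with earlier results of these data known.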

Additional observations from a re-analysis of the deposited data

How the results depend on the processing

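Over all genes tested, 679 rose and 411 fell, against 1216 and 1248 with DESeq2, 1157 and 1488 with no filter on low counts, 16 and 13084 with scaling on the leukocyte genes, and 0 to 814 and 0 to 1595 with a library left out. With at least 10 counts in every library 641 fell. With any WT library or pool 2 left out edgeR called 0 genes, while 3521 to 5200 had an unadjusted p under 0.05. Of the 10 eicosanoid genes 2 rose and 0 fell. DESeq2 called 4 higher (adding *Ptgdr2* and *Ptger2*), no filter 5 (adding *Cysltr1* too), RLE scaling and library size alone 1 (*Ptger1*), a library left out 0 to 1, and scaling on the leukocyte genes 0 higher and 3 lower. Of the other eicosanoid genes 1 rose and 1 fell, against 2 and 6 with DESeq2, 0 and 27 with leukocyte scaling, and 0 to 1 and 0 to 12 with a library left out. The number that fell was 2 with limma, RLE scaling, library size alone or the adjusted p alone, 3 with thinning, 4 with at least 10 counts and 11 with no filter. The cause was not tested.

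Scaling on the leukocyte genes turned the log2 fold changes of *Ptger1* (−0.48), *Ptger3* (−1.82), *Ptger4* (−1.69), *Ptgir* (−0.52), *Cysltr1* (−0.84), *Hpgds* (−2.12) and *Alox5* (−1.42). *Hpgds*, close to 0, also turned with DESeq2 (−0.0168), limma (−0.0276), RLE scaling (−0.0199), library size alone (−0.0159), no filter (−0.082) and at least 10 counts (−0.0326). Leaving out a library gave −0.56 to 0.39 for *Hpgds*, −0.25 to 0.61 for *Ptger3* and −0.97 to 0.093 for *Ptgs2*. In all, 112 of 130 alternative fold changes of the 10 genes kept their direction. Relative to leukocyte genes the difference ran from −0.02 to 0.53 for *Ptgdr2* and from −0.007 to 0.383 for *Ptger2* with a library left out, and relative to ILC2 genes it was 0.33 for *Ptger1* and 0.24 for *Ptgir*. With a pool labelled Rag1-/- left out, the lone pool was assumed to vary like the WT pools. No paired analysis was possible because the groups share no pool numbers. Pool 2 held 8050562 counts, where *Ptger3*, *Ptgdr2* and *Ptger2* had 35, 36 and 68 counts, the fewest of the 10 genes.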

Other observations

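Receptors and enzymes for leukotriene B4 and for epidermal lipid mediators gave further values, for genes named after they were seen. *Ltb4r2*, the low-affinity leukotriene B4 receptor of epithelia, had 19.6, 11.9 and 11.2 CPM in WT pools 5, 6 and 13 and 2.73 and 5.68 CPM in pools 2 and 7 labelled Rag1-/-. The groups did not overlap, and the log2 fold change was −1.67 (SE 0.433, adjusted p = 0.0661, edgeR). *Ltb4r1*, the high-affinity receptor of leukocytes, had 14.1, 16.4 and 13.2 CPM and then 13.4 and 17.1 CPM, with overlapping groups (0.11, adjusted p = 0.836, edgeR; −0.18 without pool 7). The epidermal lipoxygenase *Alox12b* ran from 46.9 to 122 CPM in WT and was at 1.37 CPM in pool 2 and 33.4 CPM in pool 7. Its partner in the skin barrier, *Aloxe3*, had 151, 101 and 65.7 CPM in WT and 14.8 and 35.2 CPM in the libraries labelled Rag1-/- (−2.02, SE 0.490, adjusted p = 0.0570, edgeR).

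Among the transport and breakdown genes, of which edgeR called 0 of 6 and DESeq2 called 1, 2 had an unadjusted p under 0.05 (edgeR). *Slco2a1*, the prostaglandin transporter, had 145, 115 and 109 CPM in WT and 69.9 and 51.6 CPM in the libraries labelled Rag1-/-, without overlap. Its adjusted p was 0.0492 (edgeR) with a log2 fold change of −0.99, just under the required size. *Abcc4*, an exporter of prostaglandins, had 60.9, 49.6 and 54.8 CPM and then 22.4 and 32.8 CPM (−0.95, adjusted p = 0.0641, edgeR). With every library kept, DESeq2 called *Ltb4r2* (adjusted p = 0.00244) and *Aloxe3* (0.000449) lower, but not *Abcc4* or *Alox12b*. It called 6.56% of all genes tested lower. Without pool 7 the log2 fold changes were −1.36 for *Abcc4*, −2.44 for *Ltb4r2*, −2.90 for *Aloxe3* and −5.87 for *Alox12b*. Over all alternatives the adjusted p of these 4 reached 0.129 to 0.495. The summed keratinocyte genes were lower in the same libraries (27870 to 39680 against 6980 and 16970 CPM), and their part in these values was not tested.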
